A study of Homo sapiens with 2 samples.

Results

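KIT and 9 genes induced by, or acting as brakes on, the ERK pathway were followed in HMC1, an established human line grown from a mast cell leukaemia. The members are KIT, SPRY1, SPRY2, SPRED1, SPRED2, DUSP4, DUSP5, DUSP6, EGR1 and ETV5. They were taken by name, with earlier results of these data known. All 25 probe sets (groups of short probes that read 1 transcript region) that the platform annotation ties to these genes were used, of 54675 on the array, and the 10 genes stand among 19775 named there. The groups were a subclone that carries CD2, an adhesion receptor of the immunoglobulin family, on its surface, and a subclone that lacks it. Both had been obtained from HMC1 cells by fluorescence-activated cell sorting on CD2, and RNA of each was hybridised to 1 Affymetrix U133 Plus 2.0 array. Each group is thus 1 subclone and 1 array, so the differences below have no error between samples and none was tested. HMC1 is known to carry activating mutations of KIT, and the sources used here do not say which of its sublines was sorted.

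KIT is the receptor for stem cell factor, on which normal mast cells depend for growth and survival. The active receptor recruits adaptors that switch on RAS, and RAS starts a kinase chain of RAF, MEK and ERK. ERK induces transcription factors such as EGR1 and ETV5 together with its own inhibitors: Sprouty proteins (SPRY) and SPRED proteins act at the level of RAS and RAF, and dual-specificity phosphatases (DUSP) remove the activating phosphates from ERK. Transcript levels of these genes are often used as a readout of ERK output, which was not itself measured on these arrays.

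The promoters of EGR1 and DUSP6, both known ERK-induced genes, are shown because EGR1 had the largest difference of the members, while DUSP6 was measured near equal by 3 probe sets. The sequences are the 250 bases before the RefSeq start of each gene in GRCh38.p14, 5′ to 3′ on the strand of the gene, at chr5:138465229-138465478 (plus strand) for EGR1 and chr12:89352502-89352751 (minus strand) for DUSP6. Capitals mark matches to the CArG box, the motif bound by serum response factor, and to the core TGACG of the cyclic AMP response element (CRE), each searched on both strands. The ETS motif was searched in the same way, but only in the longer form CCGGAA and not as the shorter GGAA. No 2 matches overlap.
EGR1: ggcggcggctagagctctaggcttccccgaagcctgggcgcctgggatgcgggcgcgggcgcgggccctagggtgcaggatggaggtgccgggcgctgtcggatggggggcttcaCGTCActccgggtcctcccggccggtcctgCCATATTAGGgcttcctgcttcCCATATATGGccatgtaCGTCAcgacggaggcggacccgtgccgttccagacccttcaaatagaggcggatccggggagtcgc
DUSP6: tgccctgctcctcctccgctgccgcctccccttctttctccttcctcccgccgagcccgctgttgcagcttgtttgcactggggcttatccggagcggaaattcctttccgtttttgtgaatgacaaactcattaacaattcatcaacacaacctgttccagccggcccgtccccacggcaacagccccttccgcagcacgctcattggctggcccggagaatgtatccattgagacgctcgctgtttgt
The EGR1 window held 2 CArG boxes, 105 to 96 and 83 to 74 bases before the start, and 2 matches to the CRE core. The DUSP6 window held none of the 3 motifs in these letters. The shorter GGAA, or TTCC on the other strand, does occur in both windows and was not counted. Of 35114 human promoter windows of the same length, 1.16% held a CArG box, 14.5% the ETS form CCGGAA and 21.2% the CRE core. RefSeq promoter windows were matched for 7 of the 10 members, and EGR1 was the only one of these 7 with a CArG box. DUSP4, DUSP5 and ETV5 had no window, so the motifs could not be set beside the DUSP4 difference. Any link between a motif and a difference was not tested. A match describes the sequence and is not evidence that a factor was bound in these cells.

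None of the 10 genes differed by 2-fold or more. Genes were compared if at least 1 array read 64 or more (6 on the log2 scale), and 6 members passed this floor: KIT, SPRED1, DUSP4, DUSP5, DUSP6 and EGR1. Of these, 3 read higher and 3 lower in the CD2-positive subclone, and their median log2 difference (CD2-positive minus CD2-negative throughout) was -0.02, against -0.05 over all 3564 genes above the floor. Over all these genes, 1.21% were at least 2-fold higher and 0.758% at least 2-fold lower. At the smaller size of 1.5-fold, 1 member was higher and 0 were lower, against backgrounds of 4.24% and 3.76%. Counts of 1 and 0 among 6 genes are close to what these backgrounds give and are not read as a result about the members. The member at that size was EGR1, and DUSP4 lay just short of it at 1.49-fold. Arrays were checked by CD2, which read 219 in CD2-positive and 13 in CD2-negative cells. Probe sets for Bacillus transcripts, absent from human RNA, read 1 to 4. All 18 hybridisation control probe sets, which read bacterial and phage RNA, had lower values on the array of CD2-positive cells (median -0.18). Centring on them would therefore add that amount to every difference and bring the median of all compared genes to 0.14 and that of the members to 0.16.

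**Figure D1:**
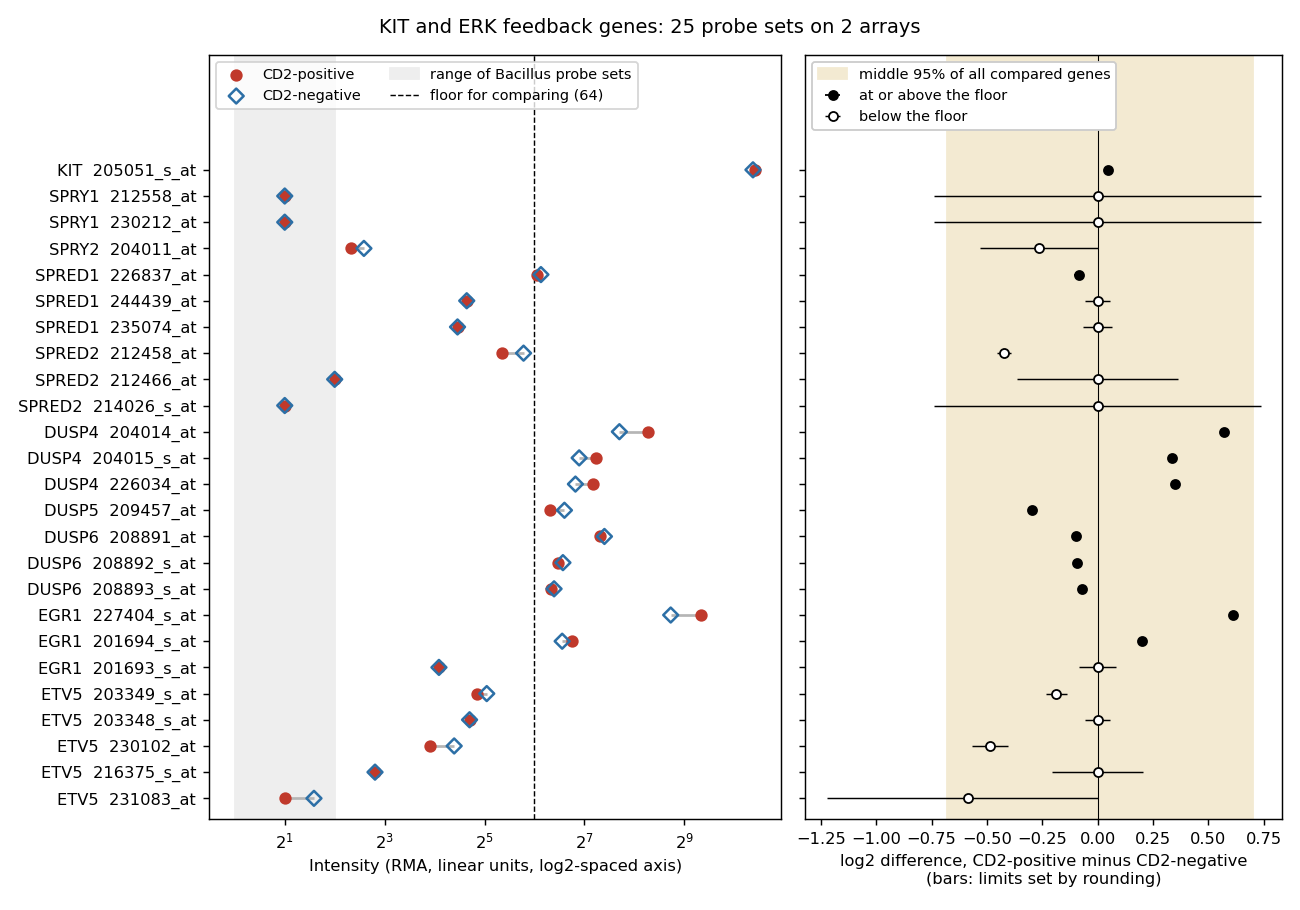
Intensities (left, log2-spaced axis, RMA units) and log2 differences (right, CD2-positive minus CD2-negative) of the 25 member probe sets, 1 array per subclone, with the floor of 64, the range of the Bacillus probe sets and, on the right, the limits that rounding to whole numbers sets and the middle 95% of all compared genes. All 3 DUSP4 probe sets and the 2 EGR1 probe sets above the floor lie right of 0, the 3 DUSP6 probe sets lie just left of it, and SPRY1 lies within the Bacillus range.

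KIT, the receptor itself, read 1373 in CD2-positive and 1328 in CD2-negative cells on its only probe set, a log2 difference of 0.05 (1.03-fold). The samples were nearly equal, and 85.3% of the compared genes differed by at least as much. That position is set against all genes and not against repeat cultures, which these data do not hold. Centred on the hybridisation controls the KIT difference was 0.23. The ligand gene KITLG, which encodes stem cell factor, read 2 in both samples, inside the Bacillus range. Among the 21 measured genes on a list of other receptor tyrosine kinases, including FLT3, CSF1R and PDGFRA, none reached the floor in either sample. Their highest reading was that of FLT1, a receptor for vascular endothelial growth factors, at 22 in CD2-positive and 32 in CD2-negative cells. The list does not hold all such receptors: EPHB1, outside it, read 62 in CD2-positive and 65 in CD2-negative cells, which is above the floor. KITLG, FLT1 and EPHB1 were picked out after their values were seen.

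The Sprouty genes lay at or near background in both subclones. SPRY1, an inhibitor of receptor tyrosine kinase signalling to RAS, read 2 in both samples on each of its 2 probe sets. SPRY2, a relative with the same kind of role, read 5 in CD2-positive and 6 in CD2-negative cells. Rounding to whole numbers allows its log2 difference to lie anywhere from -0.53 to 0, so no difference can be read from it. The remaining family members SPRY3 and SPRY4 read 2 in CD2-positive against 3 in CD2-negative cells and 3 in CD2-positive against 2 in CD2-negative cells. No Sprouty transcript was thus measured above the floor in these 2 samples by the probe sets on this array.

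The SPRED genes were low in both subclones, and 1 of their 6 probe sets passed the floor. SPRED1, which brings the RAS inhibitor neurofibromin to the membrane, read 66 in CD2-positive and 70 in CD2-negative cells on its brightest probe set, a log2 difference of -0.08. Its other probe sets, below the floor, read 25 in both samples and 22 in both. All 3 SPRED1 probe sets therefore gave equal or nearly equal values in the samples, and centring on the hybridisation controls moved the first to 0.10, with the other sign. SPRED2, a paralogue of like function, read 41 in CD2-positive and 55 in CD2-negative cells on its brightest probe set (1.34-fold lower, log2 difference -0.42). That reading lies under the floor, and its other probe sets read 4 in both samples and 2 in both, inside the Bacillus range. The lower SPRED2 value of the CD2-positive sample hence stands on 1 probe set. SPRED3, the remaining paralogue, read 24 in CD2-positive against 23 in CD2-negative cells.

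The ERK phosphatase genes went different ways. DUSP4, a nuclear phosphatase of ERK and related kinases, read higher in the CD2-positive subclone on all 3 of its probe sets. The brightest read 309 in CD2-positive and 208 in CD2-negative cells, a log2 difference of 0.57 (1.49-fold). The others read 150 in CD2-positive against 119 in CD2-negative cells (0.33) and 144 in CD2-positive against 113 in CD2-negative cells (0.35). The probe sets thus shared the sign but not the size, and their mean was 0.42. Of the compared genes, 8.64% differed by at least as much as the brightest DUSP4 probe set.

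DUSP6, the cytoplasmic phosphatase that is specific for ERK, read 158 in CD2-positive and 169 in CD2-negative cells (log2 difference -0.10). Its other probe sets read 89 in CD2-positive against 95 in CD2-negative cells (-0.09) and 80 in CD2-positive against 84 in CD2-negative cells (-0.07). The 3 readings lay close together and each was slightly lower in the CD2-positive sample, a sign that turns when centred on the hybridisation controls (0.09 for the brightest). DUSP5, a nuclear phosphatase that is specific for ERK, has a single probe set, which read 79 in CD2-positive and 97 in CD2-negative cells. This is a log2 difference of -0.30 (1.23-fold lower), and 31.6% of the compared genes differed by at least as much. Centred on the hybridisation controls it was -0.11. DUSP4 was therefore the only one of these 3 phosphatase genes to read higher in the CD2-positive sample as the values were deposited.

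Among the transcription factor genes, EGR1 was the brighter and ETV5 lay under the floor. EGR1, a zinc finger factor induced within minutes of ERK activation, read 648 in CD2-positive and 424 in CD2-negative cells on its brightest probe set, a log2 difference of 0.61 (1.53-fold). Of the compared genes, 7.13% differed by at least as much. A second probe set read 108 in CD2-positive against 94 in CD2-negative cells (0.20), and the dimmest, under the floor, read 17 in both samples. The 3 EGR1 probe sets do not give 1 size: the difference shrank to 0 on the dimmest, and the mean over all 3 was 0.27. The gap of 0.41 between the pair above the floor is large for these arrays, since only 4.38% of 937 genes with several probe sets above the floor had a gap of at least that size. For DUSP4 the corresponding gap was 0.24, and 150 of those genes had one at least as large. Over all 937 genes the spread of a single probe set's difference was 0.13 (SD, from the gap between the 2 brightest probe sets of a gene divided by the square root of 2). It covers probe behaviour only and not the variation between cultures or hybridisations.

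ETV5, a factor of the ETS family known as an ERK target, has 5 probe sets, all under the floor. The brightest read 29 in CD2-positive and 33 in CD2-negative cells (log2 difference -0.19), and the next 26 in both. The remaining ones read 15 in CD2-positive against 21 in CD2-negative cells (-0.49), 7 in both, and 2 in CD2-positive against 3 in CD2-negative cells. No ETV5 probe set was higher in the CD2-positive subclone, and 3 had lower values at intensities where the background correction weighs heavily. For the dimmest of these 3, rounding allows a log2 difference anywhere from -1.22 to 0, so no difference can be read from it. The relatives ETV4 and ETV1 read 15 in CD2-positive against 13 in CD2-negative cells and 3 in CD2-positive against 4 in CD2-negative cells, and the EGR1 relatives EGR3 and EGR4 read 22 in CD2-positive against 27 in CD2-negative cells and 6 in CD2-positive against 11 in CD2-negative cells, all under the floor. These paralogues, like those of the Sprouty and SPRED genes above, were named after their values were seen.

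**Figure D2:**
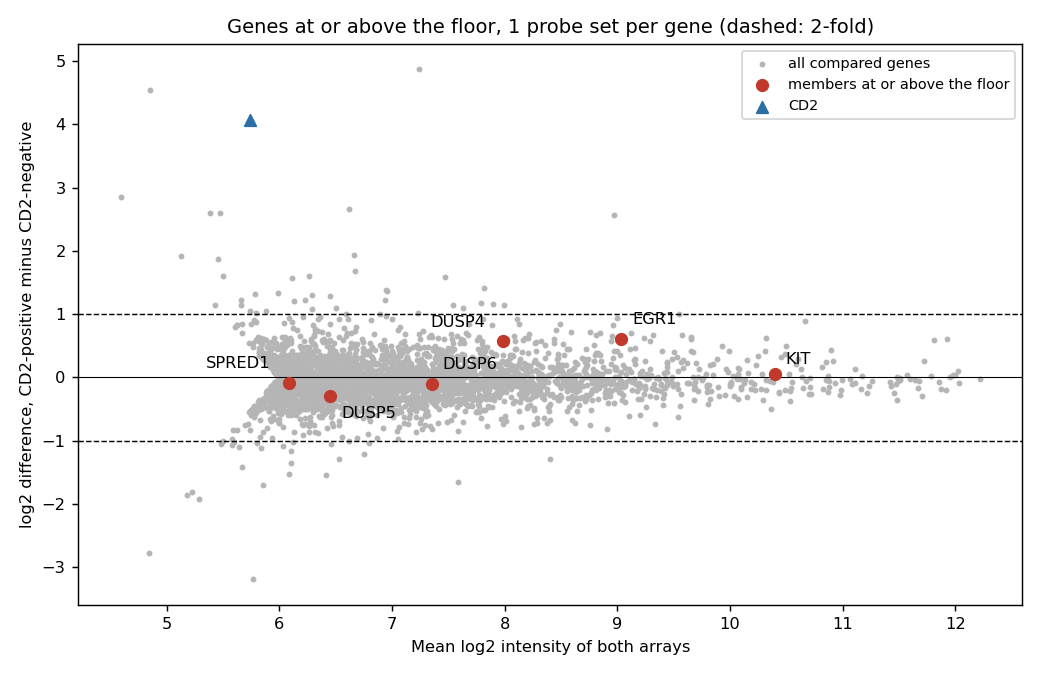
log2 difference (CD2-positive minus CD2-negative) against mean log2 intensity for the 3564 genes above the floor, 1 probe set per gene, with the 6 members above the floor and CD2 marked and dashed lines at 2-fold. The members lie between -0.30 and 0.61, within the dashed lines, while CD2 lies at 4.07.

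Neighbouring genes were read beside each member to show whether it lay in a stretch of chromosome whose genes differed together. For each member the 20 nearest compared genes on its chromosome were taken, in the order of the RefSeq table. The 20 neighbours of EGR1, on chromosome 5, had a median of -0.07 with 18 negative and a highest difference of 0.31, below that of EGR1 itself. The 20 neighbours of DUSP4, on chromosome 8, had a median of -0.15 with 15 negative and a highest difference of 0.29, also below that of the gene. Of all compared genes 55.7% were negative. EGR1 and DUSP4 thus read above every one of their 20 neighbours. Only 4.24% of all compared genes were at least 1.5-fold higher, so this position follows largely from the size of the members' own differences. The share of all genes that lie above their neighbours was not computed. For the other members the neighbours' medians ran from -0.31 for SPRY2 on chromosome 13 to 0.00 for DUSP5 on chromosome 10. DUSP5 at -0.30 lay below its neighbours' median, though within their range. Over all compared genes, 95% of such medians lay between -0.45 and 0.13, and those of all 10 members fell inside.

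**Figure D3:**
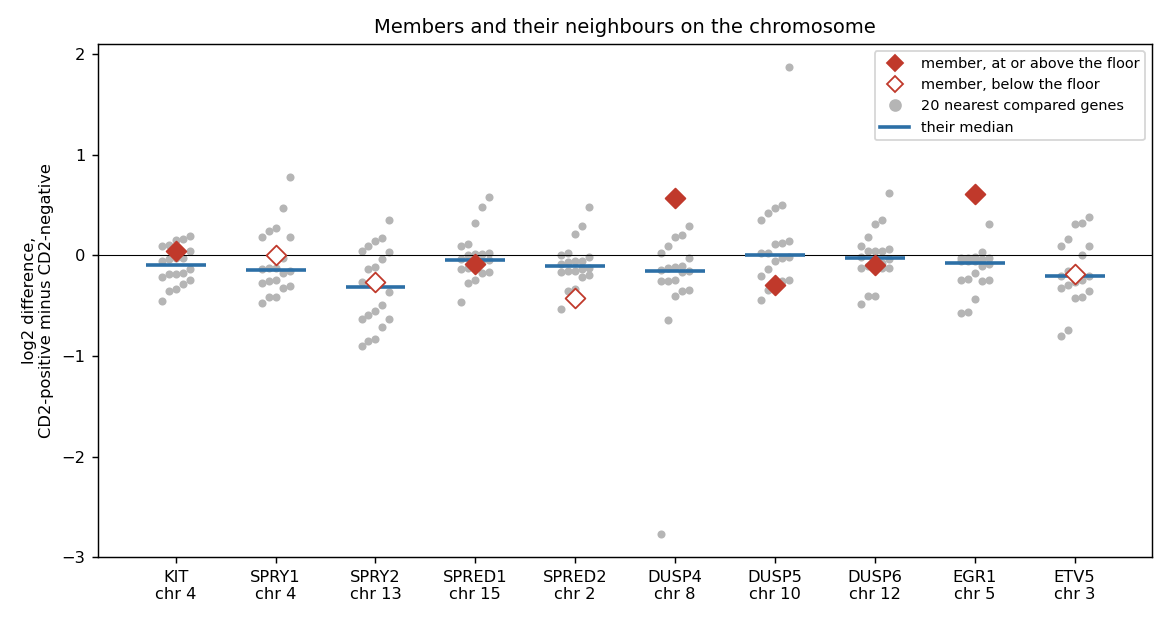
log2 difference (CD2-positive minus CD2-negative) of each member (diamond, open where under the floor) beside its 20 nearest compared genes (grey points) and their median (line). EGR1 and DUSP4 lie above all of their neighbours, whose highest values were 0.31 and 0.29, and the remaining members lie within the range of theirs.

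The lists for proximal KIT signalling and for the ERK cascade, which mix activators, inhibitors and ERK substrates, showed no common direction. Of 25 listed genes of KIT ligand and proximal signalling 23 were measured and 12 passed the floor, with 6 positive and 6 negative differences and a median of -0.01. FYN, a kinase of the Src family that acts near the receptor, was the only one past 1.5-fold. It read 34 in CD2-positive and 73 in CD2-negative cells (log2 difference -1.10), so it passed the floor only through the CD2-negative array. The neighbours of FYN on chromosome 6 had a median of -0.15. Of all compared genes 3.76% were at least 1.5-fold lower, and 1 gene among 12 is not read as a result about the list. Of the RAS, RAF, MEK and ERK cascade list 19 of 25 genes were measured and 6 passed the floor, with 2 positive, 4 negative and a median of -0.02. None of the 6 reached 1.5-fold. ELK4, a partner of serum response factor at promoters and a substrate of ERK, was the farthest from 0 at 68 in CD2-positive against 82 in CD2-negative cells (-0.27), and its neighbours on chromosome 1 had a median of -0.29. Over all compared genes 41.9% were positive. Centred on the hybridisation controls, both medians turned to 0.17.

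Other genes that ERK induces read in both directions. Of 29 listed genes 28 were measured and 14 passed the floor, with 6 positive, 7 negative and 1 equal, and their median was -0.01 (0.17 if centred on the hybridisation controls). None of the 14 was 1.5-fold higher in the CD2-positive subclone and 2 were 1.5-fold lower, against 4.24% and 3.76% of all compared genes, and with so few genes these counts are not read as a result about the list. FOSB, an AP-1 transcription factor gene, read 36 in CD2-positive and 64 in CD2-negative cells (-0.83), so it met the floor only through the CD2-negative array. The neighbours of FOSB on chromosome 19 had a median of 0.06. IER5, an immediate early gene, read 362 in CD2-positive against 638 in CD2-negative cells (-0.82), and its neighbours on chromosome 1 had a median of -0.33. SRF, which encodes the serum response factor that binds CArG boxes, read 67 in both samples, and was picked out after its value was seen. The list of further feedback inhibitors and MAP kinase phosphatases had 16 measured genes, of which 2 passed the floor. DUSP3, a small phosphatase with ERK among its substrates, read 135 in CD2-positive against 93 in CD2-negative cells (0.54), with 0.71 on its other probe set above the floor and a median of 0.02 over its neighbours on chromosome 17. DUSP10, which acts mainly on p38 and JNK, read 54 in CD2-positive against 74 in CD2-negative cells (-0.45), and the 20 neighbours of that gene on chromosome 1 had a median of -0.46. It is named as the only other gene of the list above the floor, after its value was seen.

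In the other arms of KIT signalling, no listed gene above the floor reached 1.5-fold. Of all compared genes 4.24% were at least 1.5-fold higher, 3.76% at least 1.5-fold lower, and 41.9% were positive. With so few genes, the counts in both lists are not read as a result about them. PI3K and AKT genes had 6 of 20 measured members above the floor, 2 positive and 4 negative, with a median of -0.05 (0.14 when centred on the hybridisation controls). PIK3CB, a catalytic subunit of PI3 kinase, was farthest from 0 at 169 in CD2-positive and 143 in CD2-negative cells (0.24). JAK and STAT5 genes had 7 of 15 above the floor, of which 5 were positive and 2 negative, with a median of 0.22, against -0.05 over all compared genes (0.40 and 0.14 if centred on the hybridisation controls). None of the 7 reached 1.5-fold. PIM1, a kinase gene induced by STAT5, was the farthest from 0 at 90 in CD2-positive against 67 in CD2-negative cells (0.43), and SOCS2, a STAT5-induced inhibitor gene picked out after its value was seen, read 186 in CD2-positive against 150 in CD2-negative cells (0.31).

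**Figure D4:**
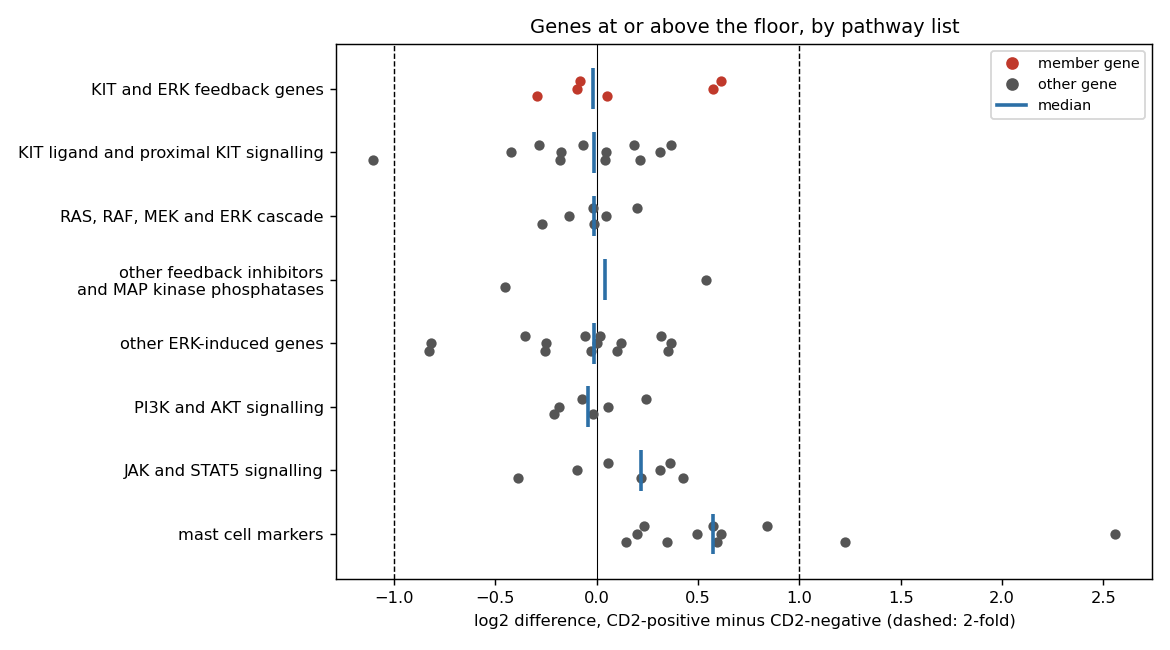
log2 difference (CD2-positive minus CD2-negative) of genes above the floor in each list, 1 point per gene, with the list's median as a line and dashed lines at 2-fold. The medians of the KIT and ERK feedback genes and of the lists from proximal KIT signalling to PI3K and AKT lie between -0.05 and 0.04, that of JAK and STAT5 genes at 0.22 and that of mast cell markers at 0.57.

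Mast cell markers other than KIT read higher in the CD2-positive subclone where they passed the floor. Of 16 measured markers 11 passed it, and all 11 were positive, against 41.9% of all compared genes, with a median of 0.57. The list was written with earlier results of these data known, so this count is not independent of them. TPSAB1 and TPSB2 are counted separately among the 11, and MS4A2, also listed, had no value. Of the 5 under the floor, FCER1A read 27 in CD2-positive and 8 in CD2-negative cells and SIGLEC8 63 in CD2-positive and 32 in CD2-negative cells. CTSG read lower, at 8 in CD2-positive and 12 in CD2-negative cells, and CMA1 and MRGPRX2 read 2 in both samples. Over all 16 the summed intensity was 14382 in CD2-positive and 9116 in CD2-negative cells. The carboxypeptidase gene CPA3 read 1220 in CD2-positive against 207 in CD2-negative cells (2.56) and the prostaglandin D synthase gene HPGDS 187 in CD2-positive against 80 in CD2-negative cells (1.22). The factor gene MITF read 276 in CD2-positive against 154 in CD2-negative cells (0.84), and the tryptase genes TPSAB1 and TPSB2, too alike in sequence to be told apart, gave 0.61 and 0.59. FCER1G, the gamma chain gene of the IgE receptor, gave 0.57, the histidine decarboxylase gene HDC 0.49, the amine transporter gene SLC18A2 0.35, SIGLEC6 0.23, the IL-33 receptor gene IL1RL1 0.20 and GATA2 0.14. KIT, also a defining marker of mast cells, differed by less than any of these 11. EGR1 and DUSP4 lay within the range of these markers, and the part of whatever moves the markers in either difference was not tested. Markers of T and NK cells, B cells, monocytes and macrophages, and fibroblasts, endothelium and epithelium were all below the floor. Over 13 T and NK genes the summed intensity was 46 in CD2-positive and 50 in CD2-negative cells, and over 6 B cell genes it was 24 in CD2-positive and 22 in CD2-negative cells. Over 8 monocyte and macrophage genes it was 19 in both, and over 8 fibroblast, endothelial and epithelial genes 42 in CD2-positive and 40 in CD2-negative cells.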

How the data were processed

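RNA of 1 CD2-positive and 1 CD2-negative HMC1 subclone was measured on Affymetrix U133 Plus 2.0 arrays. The deposited values are probe set intensities, which the authors, per the submitters' processing notes, made with RMA (Affymetrix Expression Console 1.1). The values are linear and rounded to whole numbers, as seen in the values. The sources used here do not give the kind of background correction, which bears on low values. RMA's quantile step removes differences in total signal.

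Probe sets with 1 gene symbol (41097 of 54675) were named through the platform annotation and updated through the RefSeq gene table of GRCh38.p14 (41043 Entrez identifiers found). Each gene took the values of its brightest probe set (mean log2 over both arrays). The floor was log2 6 on the higher array, and the sizes were 2-fold and 1.5-fold. With 1 array per group there are no p-values or standard errors, and the number of arrays limits the precision.

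Members and lists were chosen with earlier results of these data known. Named by rule were all members, CD2, the markers above the floor and, from each pathway list, up to 4 genes past 1.5-fold or else the one farthest from 0. Alternatives changed the floor, the value per gene, the scaling, a pseudocount and the size. Listed genes without a probe set in the table used here were not analysed. Python 3.11.15, pandas 2.3.3 and statsmodels 0.14.6 were used, and the computation was tested on simulated data.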

Additional observations from a re-analysis of the deposited data

How the results depend on the processing

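No paired analysis was possible because each group holds 1 array. No member was 2-fold higher or lower under the floors of log2 5, log2 7 or none, the mean of all probe sets, plain identifiers only, the 3 scalings, a pseudocount of 16 or a size of 3-fold, and a size of 1.5-fold gave 1 higher and 0 lower. The number of members at least 1.5-fold higher was 0 when a gene's probe sets were averaged and 0 with identifiers that carry no _s, _x or _a, which leave EGR1 and KIT without a value. It was 2 (EGR1 and DUSP4) when centred on the median of all probe sets above the floor, 2 when centred on the hybridisation controls and 2 after lowess correction by level (span 0.3). The floor decides how many members count: 10 were compared with none, 4 at log2 7 and 8 at log2 5. The median of the compared members was 0.31 at a floor of log2 7 and 0.16 when centred on the hybridisation controls, and ran from -0.09 to 0.05 under the other 7. The EGR1 difference ran from 0.27 (mean of all probe sets) to 0.79 (hybridisation controls) and that of DUSP4 from 0.42 to 0.75, each positive throughout. SPRED1 and DUSP6 were negative except when centred on the hybridisation controls. The JAK and STAT5 median ran from 0.06 to 0.43, and that of the PI3K and AKT genes was 0.35 when probe sets were averaged. That of the further feedback inhibitors, over 2 genes, ran from -0.44 to 0.54. Whether a scaling by controls or by all genes fits these samples better was not tested. Low intensities limit what can be said of SPRY1, SPRY2, SPRED2 and ETV5.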
